A study of Homo sapiens with 24 samples.

Results

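The nuclear genes of the mitochondrial respiratory chain and of the ATP synthase were followed in HEK293T cells, a human embryonic kidney line, after transfection with an siRNA against FMR4 or with a plasmid that carries FMR4, a long non-coding RNA transcribed antisense to FMR1. The members were chosen by symbol alone, as the probe sets with a single gene symbol that fits a pattern. The symbol begins with the NDUF letters of complex I, with UQCR, with COX4 to COX8 or with ATP5, or is SDHA, SDHB, SDHC or SDHD. SDHB has no probe set of its own and is not among the members. The members came to 89 genes of the 18417 genes with a probe set of their own. By complex, 34 encode subunits of complex I, 7 its assembly factors, 3 subunits of complex II, 7 of complex III, 17 of complex IV and 17 the ATP synthase with its inhibitor ATP5IF1. The other 4 symbols, ATP5F1EP2, ATP5MGL, UQCRBP1 and NDUFV1-DT, are pseudogenes, a gene-like copy and a divergent transcript that share the letters.

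RNA was taken 6 and 24 h after transfection, on 3 arrays in each of 8 groups and 24 arrays in all. The siRNA groups received 40 nM of FMR4 siRNA or of CTRL siRNA, a scrambled sequence, with Lipofectamine RNAiMAX. The plasmid groups received 0.5 µg of the expression vector pcDNA3.1, either with FMR4 (FMR4 pcDNA3.1) or empty (CTRL pcDNA3.1), with Lipofectamine 2000CD. All groups were transfected, and all come from 1 cell line, so the nucleic acid and the reagent changed together between the siRNA and plasmid arms and cannot be told apart. Each biological replicate was a pool of 3 technical replicates. No probe set of the annotation used here is named for the FMR4 gene, so its own level was not analysed here and neither the knockdown nor the overexpression was checked on these arrays.

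Complexes I to IV carry electrons from NADH and succinate to oxygen in the inner mitochondrial membrane. Complexes I, III and IV pump protons as they do so, and the ATP synthase makes ATP as the protons flow back. Complex II is also an enzyme of the citric acid cycle, and all of its subunits are encoded in the nucleus, whereas the other complexes also hold subunits encoded in mitochondrial DNA, which were not analysed here. Assembly factors help to build complex I and are absent from the finished enzyme.

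Many nuclear genes of the respiratory chain are known as targets of nuclear respiratory factor 1 (NRF1), of ETS family factors that include nuclear respiratory factor 2, and of YY1. RefSeq promoter windows of 300 bases (GRCh38.p14, from 250 bases before to 50 after a start) were given for 74 members. The letters GCGCANGCG (NRF1), read on both strands, were found in 24 of the 74 genes, or 32.4%, beside 9.02% of the 27305 genes with a window. CCGGAAGT (ETS) stood in 16.2% of the member genes and 4.95% of all, AAGATGGC (YY1) in 14.9% and 3.52%, and CCAAT in 37.8% and 39.7%. By complex, the NRF1 letters were present in 10 of 32 complex I genes, 1 of 6 assembly factors, 2 of 2 complex II genes, 3 of 6 complex III genes, 2 of 14 complex IV genes and 6 of 13 ATP synthase genes. A match is a description of the letters and not a site that was measured. Stretches upstream of the start are shown for 3 members called below, picked because they carry the NRF1 letters. COX8C, also called below, carries them too, and UQCRC1 has a second match nearer its start. The stretches shown run 5′ to 3′ on the gene's strand, with the NRF1 letters or their reverse complement in capitals. They lie at chr11:112086743-112086791 on the plus strand for SDHD, where the letters on the other strand overlap those in capitals, at chr7:123557948-123557996 on the minus strand for NDUFA5 and at chr3:48609664-48609712 on the minus strand for UQCRC1.
SDHD: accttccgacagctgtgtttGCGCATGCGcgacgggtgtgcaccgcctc
NDUFA5: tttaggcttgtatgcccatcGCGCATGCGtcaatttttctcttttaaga
UQCRC1: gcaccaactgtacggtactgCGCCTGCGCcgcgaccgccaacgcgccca

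Expression is given as deposited, on the log2 scale, and spans 2.62 to 14.5, with array medians of 7.43 to 7.53. The arrays' number limits the precision. As a floor for genes that are off, the upper quartile of 429 olfactory receptor and keratin-associated genes was 6.00, and 87 of the 89 members had a mean above it. The exceptions were COX7B2, at a mean of 4.52, and COX6B2, at 5.65, isoforms of complex IV subunits best known from testis. All 6 measured markers of the line were above the floor, at 7.39 to 12.1. Markers of cell types that should be absent passed it too for 2 of 3 blood genes, 2 of 2 glial genes, 1 of 3 liver genes, 4 of 5 muscle genes and 3 of 3 testis genes, at no more than 7.68, so a value just above 6.00 does not show expression. Replicate 3 of FMR4 siRNA at 6 h stood apart, with a best correlation of 0.992 to an array of its own group, where the next lowest array had 0.997. For the members, comparisons that use it are given without it below wherever a call turns on it. The genes of the lists outside the members were not refitted without it.

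Across the 8 groups the members moved little. The span between the lowest and the highest of a gene's 8 group means had a median of 0.21 on the log2 scale and ran from 0.06 to 0.85, and 2 members, NDUFA5 and NDUFAF1, spanned more than 0.5. At an adjusted p under 0.05 (limma, Benjamini-Hochberg over all named probe sets) in any of 15 comparisons, 19 members were called at least once and 70 never, or 21.3% called beside 35.6% of all genes. The 19 were 9 of 34 complex I subunits, 3 of 7 assembly factors, 1 of 3 complex II genes, 2 of 7 complex III genes, 3 of 17 complex IV genes and 1 of 17 ATP synthase genes. ATP5F1B, the catalytic beta subunit of the ATP synthase, was among the steadiest, with group means between 13.21 and 13.27.

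With FMR4 siRNA at 24 h 2 members were called, NDUFAF7 and SDHD, and both were lower than with CTRL siRNA, beside 5.88% of all genes called in either direction and 2.45% called lower. NDUFAF7 is a methyltransferase that acts in the assembly of complex I. Its log2 values were 9.38, 9.45 and 9.44 with CTRL siRNA and 9.03, 9.16 and 8.98 with FMR4 siRNA, and the groups did not overlap. At 24 h NDUFAF7 was lower with FMR4 siRNA than with CTRL siRNA by 0.37 on the log2 scale (SE 0.065, 1.29-fold, limma adjusted p = 0.00071). At 6 h the NDUFAF7 values, 9.18, 9.37 and 9.18 with CTRL siRNA and 9.32, 9.21 and 9.14 with FMR4 siRNA, overlapped, with a difference of -0.02 (SE 0.065). From 6 to 24 h the CTRL siRNA arrays thus moved up without overlap, while the FMR4 siRNA arrays moved down with overlap. The 24 h knockdown difference of NDUFAF7 minus that at 6 h was -0.35 (SE 0.092), and it missed the threshold (limma adjusted p = 0.073). It passed in 3 of the 12 fits that left out 1 array, without replicate 2 of CTRL siRNA at 6 h, replicate 3 of FMR4 siRNA at 6 h or replicate 2 of FMR4 siRNA at 24 h, with the lowest adjusted p at 0.012.

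SDHD anchors succinate dehydrogenase in the membrane and takes part in binding its heme and ubiquinone. The SDHD values at 24 h were 11.95, 12.03 and 11.87 with CTRL siRNA and 11.62, 11.67 and 11.58 with FMR4 siRNA, so the lowest control array was above the highest knockdown array. SDHD fell by 0.33 (SE 0.073, 1.25-fold, limma adjusted p = 0.0071). A second SDHD probe set gave a difference of -0.30 (SE 0.073, limma adjusted p = 0.014). Which of the 2 probe sets reads the SDHD locus itself was not checked. Without replicate 2 of CTRL siRNA at 24 h the first probe set missed the threshold, at an adjusted p of 0.056. At 6 h the SDHD groups overlapped, with a difference of -0.02 (SE 0.073), and the difference between the knockdown effects of the 2 times was -0.30 (SE 0.10, limma adjusted p = 0.22). That difference of SDHD passed without replicate 3 of FMR4 siRNA at 6 h, at 0.014. SDHA, the flavoprotein of the same enzyme, differed at 24 h by -0.01 and was not called.

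The other members did not pass the test at 24 h. Called members made up 2.25% of the 89, a share near that of the genes called lower over the whole array. At an unadjusted p under 0.05 were 8 members, 3 higher and 5 lower, or 8.99% beside 16.4% of all genes. The largest positive difference was that of UQCRB, a small complex III subunit, at 0.23 (SE 0.092, adjusted p = 0.20), and COX8C, a testis isoform of complex IV subunit 8 whose group means of 5.97 to 6.35 straddle the floor, stood at -0.32 (SE 0.11, adjusted p = 0.092). The 8 measured core subunits named by rule (NDUFS1, NDUFV1, SDHA, UQCRC1, COX4I1, COX5A, ATP5F1A and ATP5F1B) lay between -0.03 for COX5A and 0.13 for UQCRC1. SDHB and UQCRFS1, also named by that rule, have no probe set of their own and were not measured. By complex the median difference was 0.04 for complex I, -0.06 for its assembly factors, -0.01 for the 3 genes of complex II, 0.05 for complex III, -0.02 for complex IV and 0.00 for the ATP synthase, and it was 0.02 over all members and 0.00 over all genes.

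At 6 h after the siRNA none of the 89 members was called by limma, beside 0.0597% of all genes, and 2 had an unadjusted p under 0.05, or 2.25% beside 3.9% of all genes. These were UQCRBP1, a pseudogene, at 0.19 (SE 0.087), and NDUFA13, a complex I subunit also known as GRIM-19, at -0.19 (SE 0.087). NDUFB7, the next by p, differed by -0.12. Without replicate 3 of FMR4 siRNA, NDUFA13 was called lower, by -0.29 and with an adjusted p of 0.044.

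**Figure D1:**
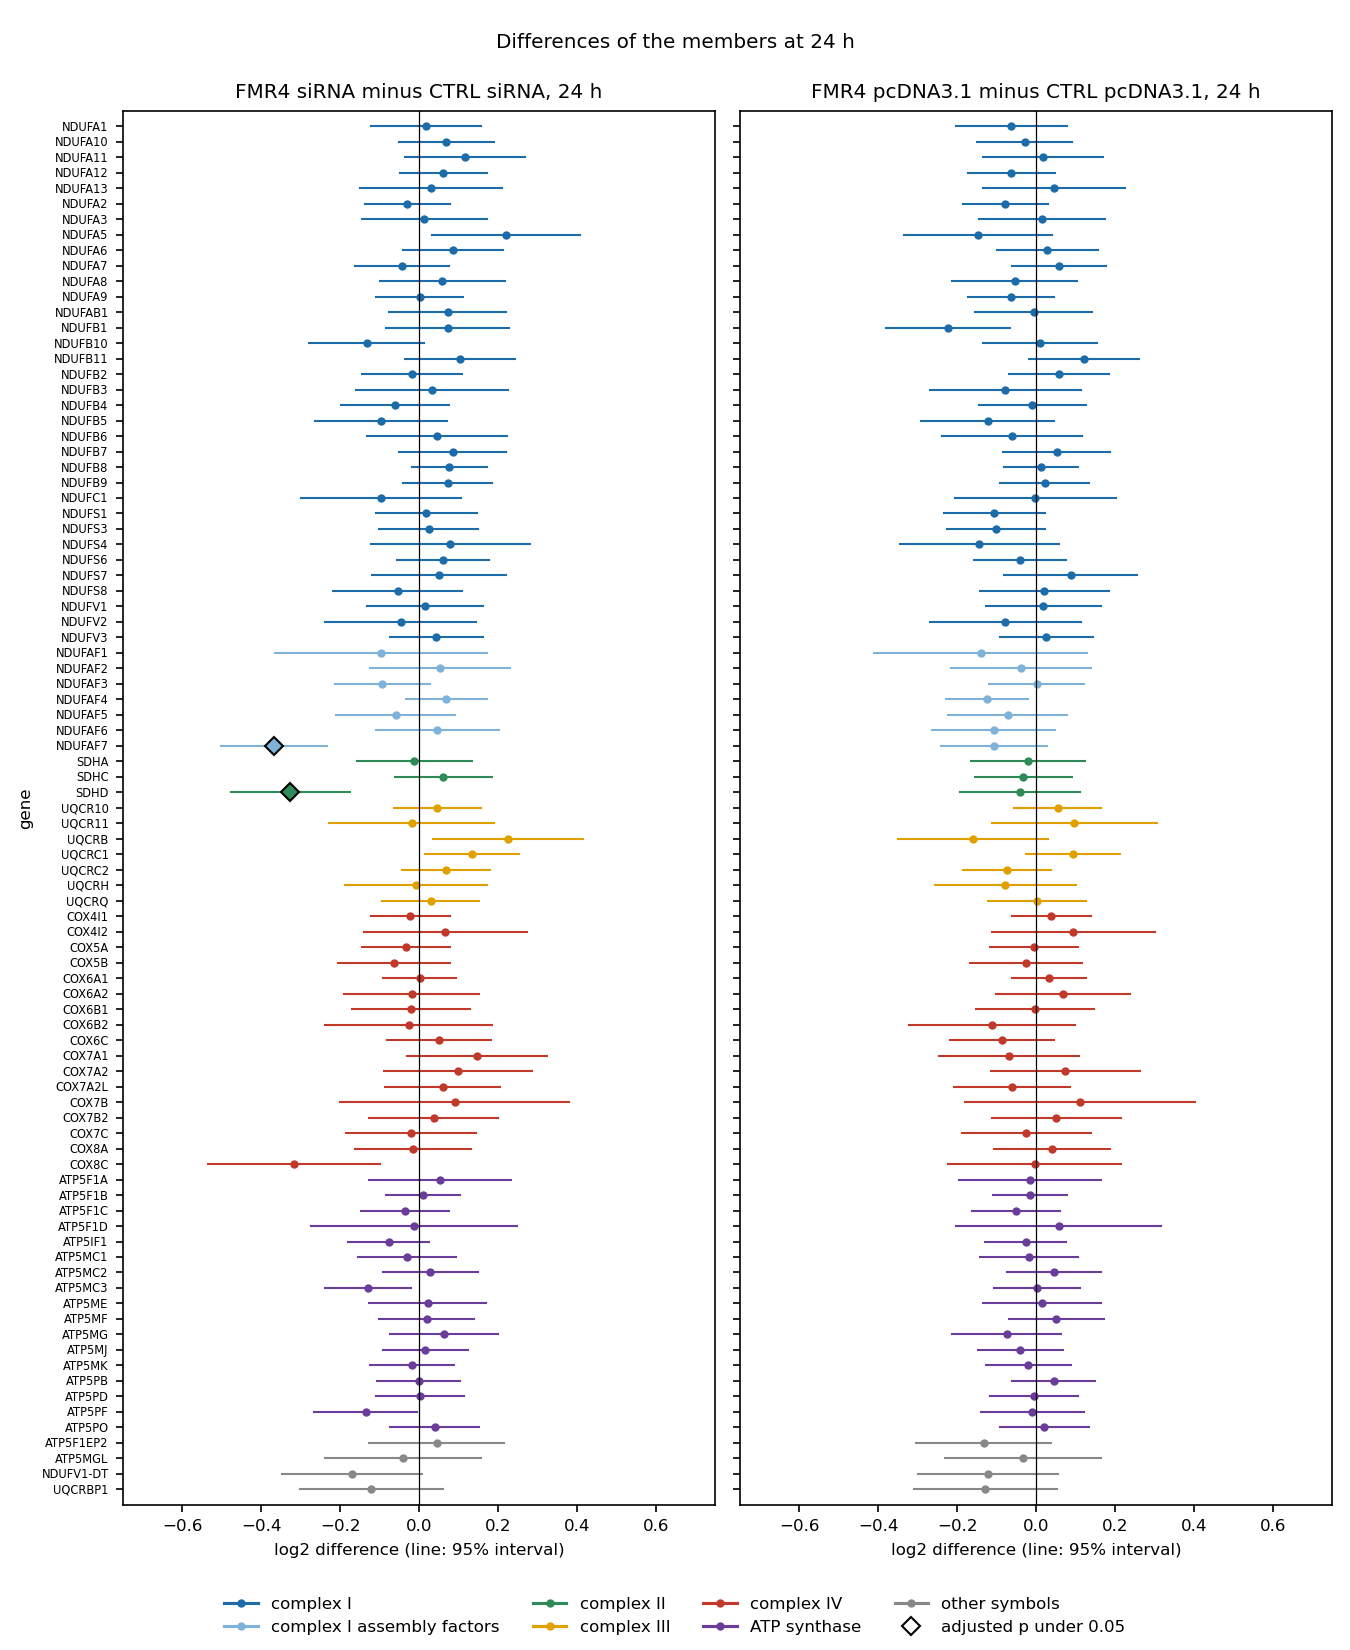
Log2 differences of the 89 members at 24 h, FMR4 siRNA minus CTRL siRNA on the left and FMR4 pcDNA3.1 minus CTRL pcDNA3.1 on the right, with 1 line per gene (dot, difference from 3 against 3 arrays; line, 95% interval from limma without adjustment; colour, complex; diamond, adjusted p under 0.05). NDUFAF7 and SDHD are the 2 diamonds on the left, and the right panel has none.

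With the FMR4 plasmid no member was called at 6 or at 24 h, and of all genes 0% were called at either time. The limma fit gave 0 members an unadjusted p under 0.05 at 6 h, where 2.03% of all genes had one. At 24 h it gave 2, NDUFB1 and NDUFAF4, both lower, or 2.25% of the members beside 3.27% of all genes. NDUFB1, a small membrane-arm subunit of complex I, read 8.56, 8.80 and 8.59 with CTRL pcDNA3.1 and 8.39, 8.40 and 8.49 with FMR4 pcDNA3.1, a difference of -0.22 (SE 0.075) without overlap and with an adjusted p of 1.00. NDUFAF4 differed by -0.12 (SE 0.050) and NDUFB11, the next by p, by 0.12. At 6 h the 3 members of lowest p were ATP5IF1 at -0.09, NDUFAF4 at -0.09 and COX7A2 at 0.17.

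The intervals give the range of a single member's difference between these groups, each read alone and without adjustment over the members. Neither knockdown nor overexpression was checked on these arrays, so the intervals set no limit on an effect of FMR4 itself. In each of these 4 comparisons the 95% interval of all 89 members lay within a 1.5-fold change in either direction, and its outermost bounds were -0.54 and 0.42 after the siRNA at 24 h and -0.41 and 0.40 with the plasmid at 24 h. For NDUFAF7 the plasmid gave values of 9.40, 9.39 and 9.37 at 24 h against 9.42, 9.57 and 9.49 with the empty vector, a difference of -0.11 (SE 0.065). For SDHD the plasmid difference at 24 h was -0.04 (SE 0.073), and -0.14 on the second SDHD probe set (SE 0.073), neither called. The plasmid effect minus the knockdown effect at 24 h was 0.26 for NDUFAF7 (SE 0.092, limma adjusted p = 0.19) and 0.28 for SDHD (SE 0.10, adjusted p = 0.21). On the second SDHD probe set that difference was 0.15 (SE 0.10, limma adjusted p = 0.65). No member was called for that difference, beside 2.12% of all genes, and 7 had an unadjusted p under 0.05, or 7.87% beside 11.9% of all genes. The 2 of lowest p were UQCRB at -0.39 and NDUFA5 at -0.37, and NDUFA5 was called without replicate 3 of FMR4 siRNA at 24 h (adjusted p = 0.044).

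**Figure D2:**
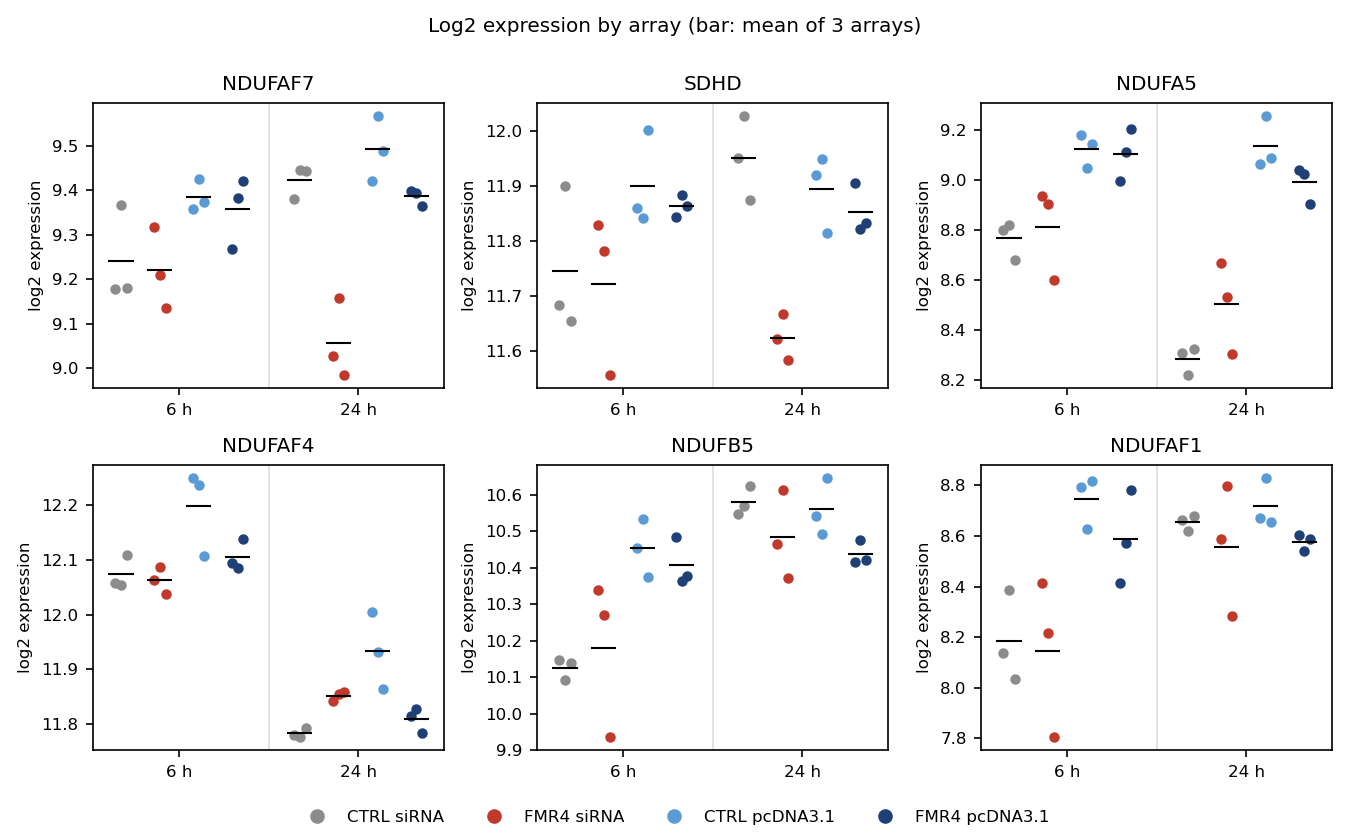
Log2 expression on each array for 6 members, with the 6 h groups at the left and the 24 h groups at the right of each panel (dots, arrays; bars, mean of 3; vertical axes differ between panels and do not start at 0). NDUFAF7 and SDHD are low with FMR4 siRNA at 24 h, NDUFA5 is low in both siRNA groups at 24 h, and NDUFAF4 is lower at 24 h than at 6 h in every condition.

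In both the siRNA and the plasmid arm more members were called between 6 and 24 h than between FMR4 and its control. The same held over all genes. With CTRL siRNA 8 members were called between 6 and 24 h, beside 18.5% of all genes, with 6 higher at 24 h (9.8% of all genes were) and 2 lower (8.75% were). With FMR4 siRNA 11 members were called, beside 16.7%, with 9 higher (12.3% of all genes) and 2 lower (4.37%). The members' shares, 8.99% and 12.4%, were below those of all genes in both conditions. With the empty vector 2 members were called, beside 5.76%, namely COX8C higher (3.83% of all genes were higher) and NDUFAF4 lower (1.93% were lower). With the FMR4 plasmid NDUFAF4 alone was called, lower, beside 6.33% of all genes in either direction and 3.03% lower.

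NDUFAF4, an assembly factor of complex I, was lower at 24 h in all 4 conditions, which have no array in common. With CTRL siRNA it read 12.06, 12.05 and 12.11 at 6 h and 11.78, 11.77 and 11.79 at 24 h, and with FMR4 siRNA 12.06, 12.09 and 12.04 and then 11.84, 11.85 and 11.86. With the empty vector NDUFAF4 read 12.25, 12.24 and 12.11 at 6 h and 12.00, 11.93 and 11.86 at 24 h, and with the FMR4 plasmid 12.09, 12.08 and 12.14 and then 11.81, 11.83 and 11.78. In no condition did the times overlap. The falls were 0.29, 0.21, 0.27 and 0.30 in that order (SE 0.050 each, limma adjusted p = 0.00041, 0.0053, 0.0023 and 0.0010). NDUFAF4 was called in all 4 conditions whichever single array was left out. In the fit to only the arrays compared, the call with FMR4 siRNA was lost (adjusted p = 0.21).

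NDUFA5, an accessory subunit in the matrix arm of complex I, fell with time in the siRNA groups. With CTRL siRNA it read 8.80, 8.82 and 8.68 at 6 h and 8.31, 8.22 and 8.33 at 24 h, without overlap, and NDUFA5 fell by 0.48 (SE 0.090, limma adjusted p = 0.00092). With FMR4 siRNA the values were 8.94, 8.90 and 8.60 and then 8.67, 8.53 and 8.31, which overlapped through replicate 3 at 6 h, and NDUFA5 fell by 0.31 (SE 0.090, adjusted p = 0.022). Of the 6 fits without 1 of those arrays, 4 lost this call (replicates 1 or 2 at 6 h, replicates 2 or 3 at 24 h), with adjusted p up to 0.12. With the empty vector NDUFA5 differed by 0.01 between the times, and with the FMR4 plasmid by -0.11, neither called.

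Other complex I genes rose with time in the siRNA groups. NDUFB5, a membrane-arm subunit, read 10.15, 10.09 and 10.14 at 6 h and 10.55, 10.57 and 10.62 at 24 h with CTRL siRNA, and rose by 0.46 (SE 0.081, limma adjusted p = 0.00060). With FMR4 siRNA NDUFB5 read 10.34, 10.27 and 9.93 and then 10.46, 10.61 and 10.37, and rose by 0.30 (SE 0.081, adjusted p = 0.013), a call that was lost without replicate 3 at 6 h or replicate 2 at 24 h (adjusted p up to 0.091). NDUFAF1, an assembly factor for the membrane arm, rose by 0.47 (SE 0.13, adjusted p = 0.015) with CTRL siRNA and by 0.41 (SE 0.13, adjusted p = 0.033) with FMR4 siRNA. The NDUFAF1 arrays of FMR4 siRNA overlapped, at 8.41, 8.22 and 7.80 against 8.59, 8.80 and 8.29, and the call was lost without replicate 3 at 6 h or replicates 1 or 2 at 24 h (adjusted p up to 0.20). With CTRL siRNA the NDUFAF1 call was lost without replicate 1 or 3 at 6 h, with adjusted p up to 0.091.

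NDUFS1, an iron-sulfur subunit of the matrix arm of complex I, rose in both siRNA conditions, by 0.22 (SE 0.062) with CTRL siRNA and 0.25 (SE 0.062) with FMR4 siRNA, as did NDUFA10, by 0.18 and 0.26 (SE 0.058). In addition, NDUFB10 (0.21) and COX5B (0.22), a zinc-binding subunit of complex IV, were called higher with CTRL siRNA. NDUFS3 (0.19), NDUFV1 (0.21), NDUFB7 (0.22), UQCRC2 (0.17) and UQCRC1 (0.30) were called higher with FMR4 siRNA. Single arrays decided most of these calls. Those of UQCRC1 and NDUFA10 with FMR4 siRNA held in all 6 fits without 1 array. In CTRL siRNA, NDUFS1, NDUFA10, NDUFB10 and COX5B all lost their calls without replicate 3 at 6 h. NDUFS1, NDUFA10 and NDUFB10 also lost them without replicate 1 at 24 h, NDUFA10, NDUFB10 and COX5B without replicate 3 at 24 h, and NDUFB10 and COX5B without replicate 1 at 6 h or replicate 2 at 24 h, with adjusted p up to 0.205. In FMR4 siRNA, NDUFS1, NDUFS3, NDUFV1, NDUFB7 and UQCRC2 lost their calls without replicate 2 at 24 h. Without replicate 2 at 6 h, or without replicate 3 at 6 h, the array that stood apart, NDUFS3, NDUFV1, NDUFB7 and UQCRC2 lost theirs. NDUFS3 and UQCRC2 also lost them without replicate 1 at 24 h and NDUFV1 and NDUFB7 without replicate 3 at 24 h, with adjusted p up to 0.19.

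UQCRC1 and UQCRC2 are the core proteins of complex III. UQCRC1 read 9.64, 9.54 and 9.66 at 6 h and 9.81, 9.98 and 9.95 at 24 h with FMR4 siRNA (SE 0.057, limma adjusted p = 0.0012). With CTRL siRNA UQCRC1 differed by 0.13 between the times and was not called, and the test of the difference between the 2 conditions gave 0.17 (SE 0.081, adjusted p = 0.45). All 11 calls with FMR4 siRNA were lost in the fit to only the 6 arrays compared. Without replicate 1 of FMR4 siRNA at 6 h 22 members were called in that condition, without replicates 2 or 3 at 6 h 7, and without replicate 2 at 24 h 3. With CTRL siRNA the count was 15 without replicate 2 at 6 h, 5 without replicate 1 at 6 h, 4 without replicate 3 at 6 h, and 5 without replicate 1 or 3 at 24 h. The share of all genes called in these refits is not given here. The counts therefore show only how far the calls depend on single arrays, and nothing particular to the members.

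The knockdown effect at 24 h minus that at 6 h, which is also the difference between the time changes of the 2 siRNA conditions, was called for no member by limma, beside 1.18% of all genes, and 7 members had an unadjusted p under 0.05, or 7.87% beside 11.3% of all genes. UQCRBP1, next by p after NDUFAF7 and SDHD, stood at -0.31.

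**Figure D3:**
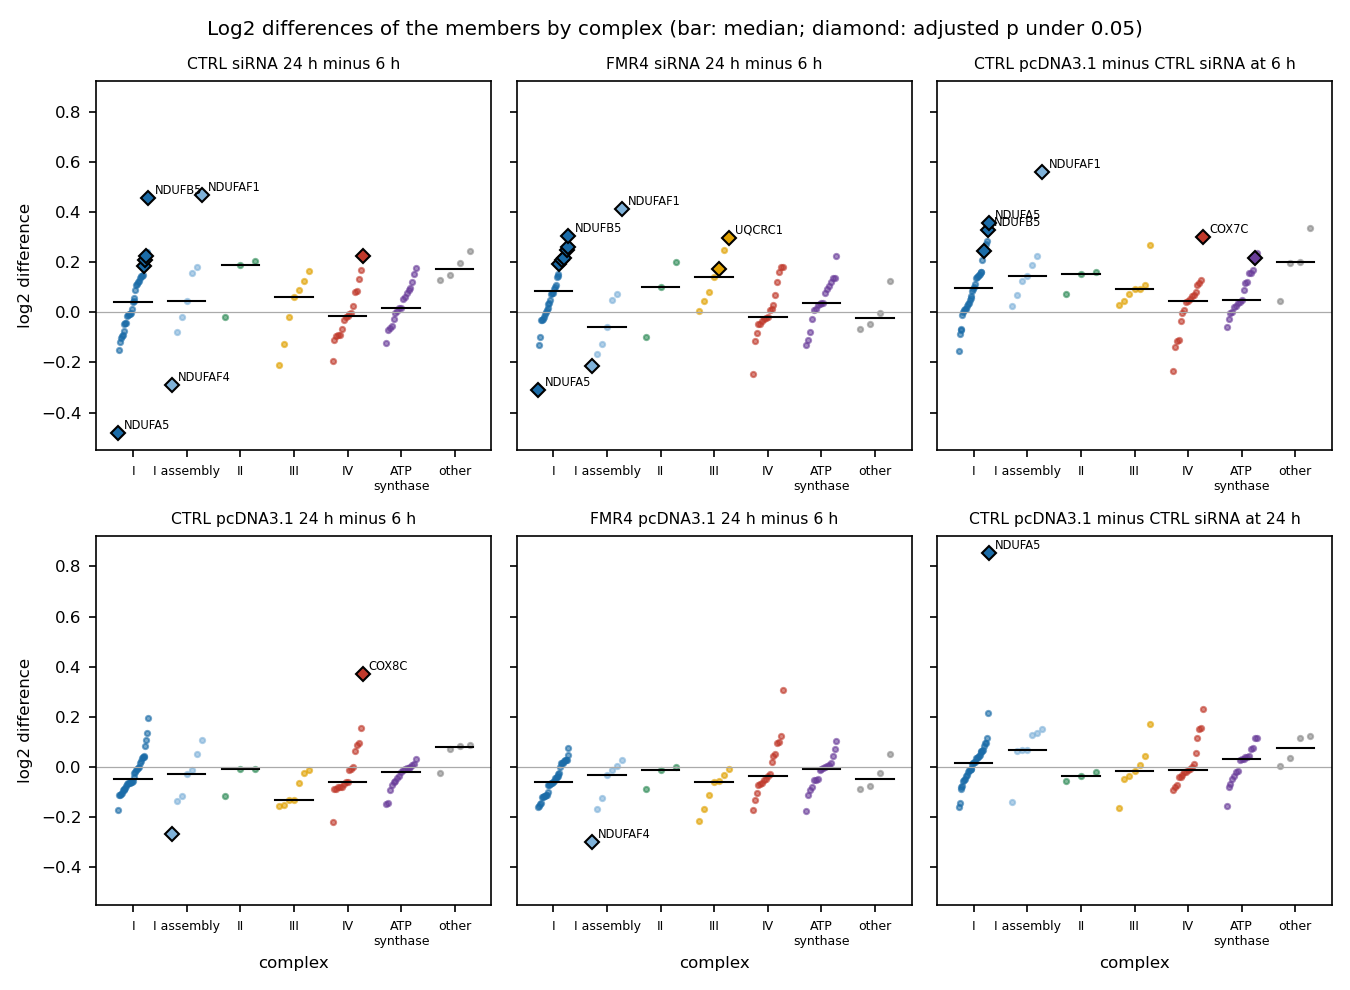
Log2 differences of the members by complex, for the change from 6 to 24 h in 4 conditions and for CTRL pcDNA3.1 minus CTRL siRNA at each time (dots, genes in order of size; bars, median of the complex; diamonds, adjusted p under 0.05, named where the difference exceeds 0.29 in size). The diamonds gather in the siRNA panels and in the 6 h plasmid panel, and NDUFA5 stands at 0.85 in the 24 h plasmid panel.

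The empty vector was compared with the scrambled siRNA to read the background that the mode of transfection gives. At 6 h 6 members were higher with the empty vector, beside 3.3% of all genes in either direction and 1.6% higher, or 6.74% of the members. They were NDUFAF1 (0.56, SE 0.13, limma adjusted p = 0.028), NDUFA5 (0.36, SE 0.090), NDUFB5 (0.33, SE 0.081), COX7C (0.30, SE 0.079), NDUFA1 (0.25, SE 0.067) and ATP5MF (0.21, SE 0.058), with adjusted p of 0.034 to 0.048 for the last 5. COX7C and ATP5MF are small membrane subunits of complex IV and of the ATP synthase. NDUFAF1 read 8.14, 8.39 and 8.04 with CTRL siRNA and 8.79, 8.63 and 8.82 with the empty vector, without overlap, and the groups did not overlap for the other 5 either. None of the 6 was called without replicate 1 or 3 of CTRL siRNA or without replicate 1 or 3 of CTRL pcDNA3.1. Without replicate 2 of CTRL pcDNA3.1 2 members were called, and of the 6 only NDUFAF1 was among them. NDUFB5 also lost its call without replicate 2 of CTRL siRNA. The rises of NDUFAF1 and NDUFB5 with time in CTRL siRNA, given above, use the same CTRL siRNA arrays at 6 h and are not independent of these differences. With all probe sets of the table in the adjustment NDUFAF1 alone was called.

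The shift at 6 h was not limited to the called genes. Of the members 75 had a positive difference and 14 a negative one, so 84.3% were positive beside 45.3% of all genes, and the median was 0.08 beside -0.02 over all genes. The median was 0.10 for complex I, 0.14 for the assembly factors, 0.15 for the 3 genes of complex II, 0.09 for complex III, 0.04 for complex IV and 0.05 for the ATP synthase. FMR4 pcDNA3.1 minus FMR4 siRNA, a comparison of other arrays, had a median of 0.08 at 6 h beside 0.00 over all genes, with 72 members positive. None passed the adjusted test of limma there, beside 0.527% of all genes, and 25 had an unadjusted p under 0.05, all positive, or 28.1% of the members beside 20.4% of all genes. UQCR11, a small complex III subunit, had the lowest adjusted p, with a difference of 0.43 (SE 0.10, adjusted p = 0.053), and COX7C (0.31) and NDUFA1 (0.26) followed. Without replicate 1 of FMR4 siRNA at 6 h 22 members were called, a count given without the share of all genes in that refit.

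The single arrays show the same order for the median over all members, but not within each complex. As the median over members of an array's deviation from each gene's mean over 24 arrays, the 6 plasmid arrays at 6 h were at 0.02 to 0.06, and the 6 siRNA arrays at 6 h were at -0.08 to 0.02. CTRL siRNA replicate 2 (0.017) and FMR4 siRNA replicate 1 (0.0052) were the highest of the siRNA arrays, and the former was just below the lowest plasmid array (0.018). Replicate 3 of FMR4 siRNA, the array that stood apart, was at -0.061.

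**Figure D4:**
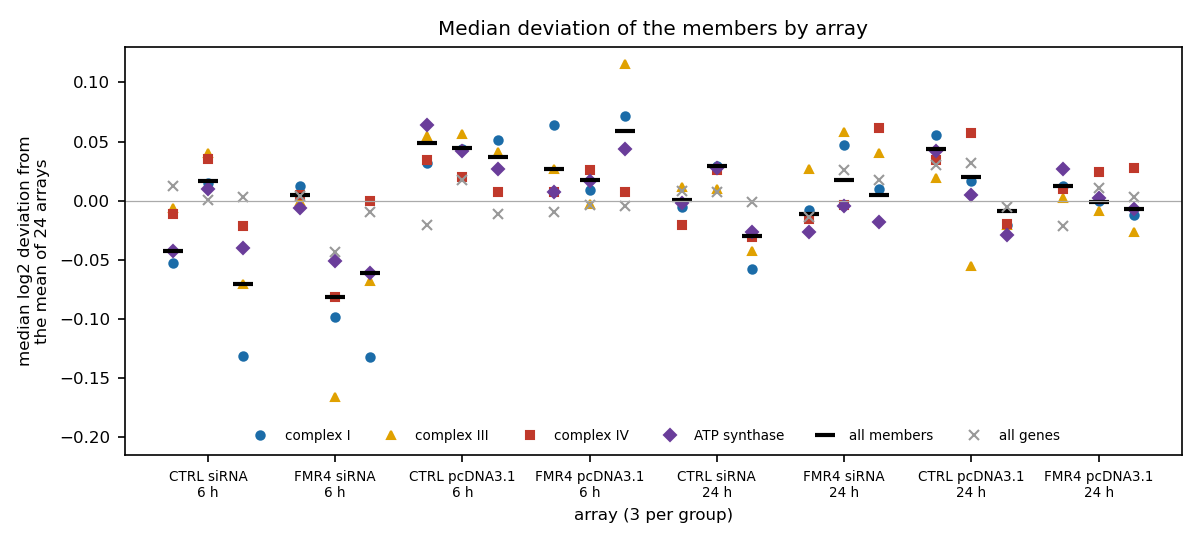
Median log2 deviation from each gene's mean over 24 arrays, for the members of 4 complexes, for all members and for all genes, on each array in order of group and replicate. All 6 plasmid arrays at 6 h have a positive median over all members, up to 0.059, and the lowest, -0.082, is replicate 2 of FMR4 siRNA at 6 h.

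At 24 h the plasmid and siRNA controls differed for 1 member, NDUFA5, beside 4.48% of all genes in either direction and 2.89% higher. It read 8.31, 8.22 and 8.33 with CTRL siRNA and 9.06, 9.26 and 9.09 with the empty vector, a difference of 0.85 (SE 0.090, 1.81-fold, limma adjusted p = 3.7e-06), the largest of any member in the 15 comparisons. NDUFA5 kept this call in all 16 alternatives, with differences from 0.79 to 0.89. The FMR4 arms gave 0.49 for NDUFA5 at 24 h (SE 0.090, adjusted p = 0.0015), from values of 8.67, 8.53 and 8.31 with FMR4 siRNA and 9.04, 9.02 and 8.91 with FMR4 pcDNA3.1. FMR4 siRNA minus CTRL siRNA was 0.22 for NDUFA5 at 24 h (SE 0.090, adjusted p = 0.21), with groups that overlapped. Over all members the median difference between the control arms at 24 h was 0.01, beside 0.02 over all genes.

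FMR4 pcDNA3.1 minus FMR4 siRNA at 24 h called 4 members, beside 8.38% of all genes, with 3 higher (3.22% of all genes were) and 1 lower (5.16% were). Besides NDUFA5 these were NDUFAF7, higher by 0.33 (SE 0.065, limma adjusted p = 0.0022), COX8C, higher by 0.37 (SE 0.11, adjusted p = 0.031), and UQCRC1, lower by 0.20 (SE 0.057, adjusted p = 0.030). NDUFAF7 and NDUFA5 were called in every fit without 1 array. COX8C and UQCRC1 lost their calls without replicate 2 of FMR4 siRNA or any 1 of the plasmid arrays, and UQCRC1 also without replicate 3 of FMR4 siRNA, with adjusted p up to 0.22 and 0.15. COX8C read 6.12, 5.72 and 6.08 with FMR4 siRNA, near the floor of 6.00, and 6.39, 6.34 and 6.30 with FMR4 pcDNA3.1.

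The time change with CTRL pcDNA3.1 minus that with CTRL siRNA was tested for each member and called for none by limma, beside 1.12% of all genes, and 11 had an unadjusted p under 0.05, or 12.4% beside 16.9% of all genes. Its median over members was -0.07, beside 0.03 over all genes. NDUFA5 came nearest to the threshold, at 0.50 (SE 0.13, adjusted p = 0.057), and it passed in 5 of 10 alternatives that kept all arrays of the groups compared. UQCRC1 (-0.26) and NDUFB5 (-0.35) followed. COX8C rose by 0.37 (SE 0.11, limma adjusted p = 0.038) with time in CTRL pcDNA3.1, from 5.87, 5.87 and 6.18, at or below the floor but for 1 array, to 6.26, 6.44 and 6.35, and lost that call without replicate 1 or 2 at 6 h or replicate 2 or 3 at 24 h.

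Isoforms of complex IV and the genes of the c-ring of the ATP synthase were read as 16 genes, of which COX8C was the only one called in any comparison. In FMR4 siRNA minus CTRL siRNA at 24 h they lay between -0.32 for COX8C and 0.15 for COX7A1, the muscle isoform, and with the FMR4 plasmid at 24 h between -0.11 for COX6B2 and 0.11 for COX7B. In the time change with CTRL siRNA they lay between -0.19 for COX7A1 and 0.15 for ATP5MC1. ATP5MC3, another gene of the c-ring, differed by -0.13 (SE 0.052, limma adjusted p = 0.20) after FMR4 siRNA at 24 h.

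Genes that act with the respiratory chain but lie outside the symbol rule were counted in 7 lists of 93 measured genes: assembly factors of complex I, of complexes II and III, of complex IV and of the ATP synthase, cytochrome c and coenzyme Q synthesis, regulators of mitochondrial biogenesis, and pyruvate dehydrogenase with the citric acid cycle. FMR4 siRNA at 24 h called 5 of the 93 higher and 0 lower, or 5.38% higher beside 3.43% of all genes, and 2.45% of all genes were called lower. These were TOP1MT (0.72, limma adjusted p = 6.8e-09), the mitochondrial topoisomerase, POLG (0.23), the mitochondrial DNA polymerase, SUCLG1 (0.45), CS (0.28), which is citrate synthase, and IDH3A (0.33), the last 3 among 16 measured genes of the citric acid cycle list. The citric acid cycle list, which gave 3 of the 5 calls, was not among the lists first planned. All lists were chosen with earlier results of these data known, so their shares, here and below, are descriptions only. None of the 4 assembly lists, nor that of cytochrome c and coenzyme Q, had a called gene with FMR4 siRNA at 24 h. The median difference was 0.09 over the 19 regulators of biogenesis and 0.05 over the citric acid cycle list, beside 0.00 over all genes. TOP1MT, SUCLG1, IDH3A and CS were also higher in CTRL pcDNA3.1 than in CTRL siRNA at 24 h, by 0.82, 0.35, 0.32 and 0.19, which shares the CTRL siRNA arrays with the knockdown comparison. In CTRL siRNA, TOP1MT, SUCLG1 and IDH3A fell from 6 to 24 h by 0.54, 0.42 and 0.29.

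Between 6 and 24 h 17 of the 93 genes were called higher and 6 lower with CTRL siRNA, or 18.3% and 6.45% beside 9.8% and 8.75% of all genes. With FMR4 siRNA 17 were higher and 2 lower, or 18.3% and 2.15% beside 12.3% and 4.37% of all genes. Of the 11 other complex I assembly factors 6 were higher with CTRL siRNA and 4 with FMR4 siRNA, with list medians of 0.26 and 0.19 beside -0.01 and 0.01 over all genes, and FOXRED1 rose by 0.73 and 0.51. In cytochrome c and coenzyme Q synthesis 7 of 15 were higher and 1 lower with CTRL siRNA, and 4 were higher and 1 lower with FMR4 siRNA. Of the 19 complex IV assembly genes 1 was higher and 2 lower with CTRL siRNA and 2 higher and 1 lower with FMR4 siRNA, of the 9 for complexes II and III 0 and 1 were higher, and of the 4 for the ATP synthase 0 and 1. Of the 19 regulators of biogenesis 1 was higher and 1 lower with CTRL siRNA and 2 were higher with FMR4 siRNA, with a list median of -0.01 in both conditions. Of the 16 genes of the citric acid cycle list 2 were higher and 2 lower with CTRL siRNA and 3 were higher with FMR4 siRNA, with medians of 0.06 and 0.14. In the list of cytochrome c and coenzyme Q the lower gene was CYCS, cytochrome c itself, which fell by 0.27 and 0.18. PPARGC1A, the coactivator of mitochondrial biogenesis, rose with time by 0.39 with CTRL siRNA, 0.43 with FMR4 siRNA, 1.09 with CTRL pcDNA3.1 (limma adjusted p = 3.0e-06) and 0.98 with FMR4 pcDNA3.1. With either plasmid 1 of the 93 genes was higher at 24 h, PPARGC1A, and 4 were lower, or 1.08% and 4.3%. Of all genes 3.83% were higher and 1.93% lower with the empty vector, and 3.3% and 3.03% with the FMR4 plasmid.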

How the data were processed

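Total RNA of HEK293T cells was hybridised to Affymetrix Human Gene ST arrays, version 1.0 per the labels and the probe annotation. The authors subtracted background and normalized with GCRMA, and the deposited log2 values were used as they are. Of 33297 probe sets 21214 had a gene in the platform annotation and were tested, 1754 of them with several symbols. A gene with more than 1 probe set of its own, as for 8 members, was read from the one with the highest mean. Where these probe sets lie in the genome was not checked, so the one read may not lie at the gene's own locus. Single-symbol names needed 0 updates. Of the coding genes that fit the symbol pattern 10 have no probe set of their own and are not analysed here.

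Each group received 1 mean in a linear model over 24 arrays (limma 3.58.1, R 4.3.3; 16 residual degrees of freedom, median 22 after moderation). Tests are two-sided, adjusted by Benjamini-Hochberg over the 21214 probe sets within a comparison, with a threshold of 0.05. With 3 arrays per group and nothing that says more of the replicates than that they are biological pools, p measures the spread between these arrays. Alternatives were trend and robust moderation, a fit to only the arrays compared, array weights, quantile normalization, median centring, all 33297 probe sets, dim probe sets left out, the mean of a gene's probe sets, the replicate block, a threshold of 0.01 and each array left out. Replicate numbers were not taken as pairs, since in 0 of 12 comparisons did all 3 same-numbered correlations exceed 0.1 (range -0.379 to 0.474).

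The members and lists were chosen with earlier results of these data known, and FMR4 pcDNA3.1 minus FMR4 siRNA was added after values were seen. Named are the called members, the 3 of lowest p where none was called, core subunits, complex IV isoforms, c-ring genes, and called genes of the lists. Counts, lists and plots used Python 3.11.15 with matplotlib 3.10.9.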

Additional observations from a re-analysis of the deposited data

Results flagged for a closer look

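In 3 of 623 combinations of a member and a pair of comparisons, the groups did not overlap in either comparison and differed in opposite directions. The pairs covered FMR4 against control, plasmid against siRNA, and 24 h against 6 h, and all 3 were of the last kind. The same count was not made over all genes. UQCRC1 differed between 24 and 6 h by 0.13 with CTRL siRNA and by -0.13 with CTRL pcDNA3.1, and the test of the difference missed the threshold (-0.26, limma adjusted p = 0.12). ATP5IF1, the inhibitor of the ATP synthase, differed by 0.052 with CTRL siRNA and by -0.078 with FMR4 siRNA (difference -0.13, limma adjusted p = 0.54). COX7A2, a complex IV subunit, differed by 0.16 with FMR4 siRNA and by -0.17 with FMR4 pcDNA3.1, and this difference was not tested.

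Probe sets outside the 1 per member that gave the counts above were called as well. One is the second SDHD probe set, already described above, at -0.30 for FMR4 siRNA minus CTRL siRNA at 24 h. A probe set shared by ZNF789, ATP5MF-PTCD1 and PTCD1 was higher with CTRL pcDNA3.1 than with CTRL siRNA at 24 h (0.27) and rose from 6 to 24 h by 0.26 with FMR4 siRNA, by 0.42 with the empty vector and by 0.39 with the FMR4 plasmid. Both probe sets shared by SDHA and its pseudogenes SDHAP1, SDHAP2 and SDHAP3 rose with time in FMR4 siRNA (0.22 and 0.18), and the first of them also in CTRL siRNA (0.20). A probe set shared by NDUFS5, SNORA70, RPL10 and DNASE1L1 rose with time in FMR4 siRNA (0.20). Which of the named genes gave these signals cannot be told apart.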

How the results depend on the processing

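The alternatives were run for each count of called members and for 56 pairs of a member and a comparison, in 27 genes, that were called or of lowest p, and in 0 of their 950 refits did the difference change sign. Other values named above were not refitted. These include core subunits and isoforms that were not called, and also the called genes and the counts of the lists outside the members. The counts of called members below are given without the share of all genes called in the same refit. They show how far the counts depend on the processing and not whether the members differ from other genes. With array weights the counts of called members came to 23 for CTRL pcDNA3.1 minus CTRL siRNA at 6 h, 3 at 24 h, 20 for the time change with CTRL siRNA, 5 with FMR4 pcDNA3.1, 15 and 8 for FMR4 pcDNA3.1 minus FMR4 siRNA at 6 and 24 h, 4 for the knockdown at 24 h, 2 and 5 for the differences between times of the knockdown and of the controls, and 1 for overexpression minus knockdown. Trend and robust moderation gave 14 and 17 for the time changes with CTRL and FMR4 siRNA, 2 for the controls at 24 h, 1 for their difference between times and 1 for FMR4 pcDNA3.1 minus FMR4 siRNA at 6 h. The fit to only the arrays compared gave 0 for the time change with FMR4 siRNA, 2 with FMR4 pcDNA3.1, 2 for the controls at 24 h and 4 for their difference between times. At an adjusted p under 0.01 the counts were 0 for the controls at 6 h, 3, 4 and 1 for the time changes with CTRL siRNA, FMR4 siRNA and CTRL pcDNA3.1, and 2 for FMR4 pcDNA3.1 minus FMR4 siRNA at 24 h. All probe sets of the table left 1 for the controls at 6 h and 1 for the time change with CTRL pcDNA3.1. Median centring and quantile normalization each gave 2 for the controls at 24 h and 1 for the knockdown between times, and centring 3 for the time change with FMR4 pcDNA3.1 and 1 for the controls between times. With dim probe sets left out, 1 was called for the controls between times and 1 for FMR4 pcDNA3.1 minus FMR4 siRNA at 6 h. With the replicate block, whose numbers showed no pairing, 2 were called for the time change with FMR4 pcDNA3.1 and 1 for the controls between times, and no other count moved by over 1.5 times.

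Leaving out 1 array gave 0 to 1 for the knockdown at 6 h, 1 to 3 at 24 h, 0 to 2 for its difference between times, 0 to 8 for the controls at 6 h, 4 to 15, 3 to 22 and 1 to 2 for the time changes with CTRL siRNA, FMR4 siRNA and CTRL pcDNA3.1, 0 to 1 for overexpression minus knockdown, and 0 to 22 and 2 to 4 for FMR4 pcDNA3.1 minus FMR4 siRNA at 6 and 24 h. Arrays left out singly still leave 3 against 2 arrays, and the median SE of a difference between 2 groups, 0.070, limits the smaller shifts. For genes near the floor, such as COX8C, signal over background is a further limit.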
